A study of Mus musculus with 4 samples.

Results

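Integrin subunits and the focal adhesion proteins that couple them to actin were examined in adult mouse mesoangioblasts (AdmMABs) silenced for PW1. The genes were chosen by symbol. They comprised every integrin alpha and beta subunit (Itga or Itgb with a number or letter code) and 22 named adhesion proteins, from talins and kindlins to Src and zyxin. Of these 49 genes, 48 had a probe set that carried their symbol alone (27 integrin subunits and 21 adhesion proteins), of 19938 genes measured in this way. Focal adhesion kinase (Ptk2) had none, and 3 rows shared between Itgam and Rpl35 were left out. Where a gene had several probe sets, the brightest over the 4 arrays stood for it.

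AdmMABs are progenitors from vessel walls with the ability to form skeletal muscle. The cells came from the tibialis anterior of adult male C57/BL6 mice, were kept as a polyclonal population in growth medium, and carried a lentiviral short hairpin RNA either against PW1 (shPW1) or with a scramble sequence (Ctl). RNA of 2 extractions of shPW1 AdmMABs and 2 of Ctl AdmMABs was hybridized to Affymetrix Mouse Gene 1.0 ST arrays. Each group was 1 transduced population with 1 hairpin, so a p-value here reflects the spread from extraction to extraction alone, which may be technical. The methods place the PW1 hairpin in pLV-H1 and also name a control hairpin in pLKO.1, without saying whether that is the one the Ctl arrays carried, so whether the vector differed between groups is not known.

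Integrins are receptors made of an alpha and a beta subunit that bind extracellular matrix or ligands on other cells. Talins and kindlins bind the beta tail and switch the receptor on, vinculin and tensins strengthen its link to actin, and the complex of integrin-linked kinase (ILK), PINCH and parvin holds it in place. Kinases such as focal adhesion kinase and Src, with the scaffolds paxillin and p130Cas, pass the signal into the cell. In muscle, laminin-binding integrins anchor fibres to the basal lamina, and on leukocytes integrins mediate arrest on the vessel wall.

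The silenced gene itself, Peg3, which encodes PW1, had log2 expression of 6.22 and 6.47 in the shPW1 arrays and 8.67 and 8.70 in the Ctl arrays. Over all 21789 probe sets tested, the difference between replicates had an SD of 0.17 in shPW1 and 0.15 in Ctl (log2), and array medians lay between 5.40 and 5.49. With no detection call at hand, the 95th percentile of 1035 olfactory receptor probe sets (log2 4.95), genes with no expected role in these cells, was taken as the upper edge of dim values. Pericyte and mesenchymal markers lay above that edge in 7 of 7 measured genes, and myogenic markers in 6 of 6. Of these, 4 of 7 and 4 of 6 were lower in shPW1 AdmMABs by limma, beside 4.35% of all 19938 genes. The summed log2 level of the 7 pericyte and mesenchymal genes was 55.4 to 55.7 in the shPW1 arrays and 58.6 to 58.7 in the Ctl arrays. That of the 6 myogenic genes was 45.1 to 45.4 in the shPW1 arrays and 48.7 to 48.8 in the Ctl arrays. Their part in the changes below was not tested. In a bulk culture, fewer cells of a type and less RNA per cell cannot be told apart.

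In shPW1 AdmMABs, 9 of the 48 genes were called higher and 2 were called lower, and 37 did not pass the test. A call was a Benjamini-Hochberg adjusted p under 0.05 from limma, adjusted over all 21789 probe sets. Among integrins, Itgb6, Itga5 and Itga6 rose and Itga3 fell. Among adhesion proteins, the PINCH protein Lims2, the kinases Ptk2b and Src, the parvin Parvb, the tensin Tns1 and the kindlin Fermt2 rose, while the talin Tln2 fell. Apart from Itgb6, the rises that passed the test ran from 1.25-fold for Fermt2 to 1.61-fold for Lims2. Itgb6 lay below the edge of dim values in both Ctl arrays, so its rise is given as a bound against that edge. At the mean of the shPW1 arrays it was at least 1.63-fold, with no allowance for their spread.

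These counts stand beside 4.93% of all 19938 genes called higher and 4.35% called lower, against 18.8% and 4.17% of the 48 genes. An unadjusted p under 0.05 in limma was reached by 5534 of all 19938 genes and by 26 of the 48. With array medians subtracted, 1637 probe sets were higher and 698 were lower, where the values as deposited gave 1075 and 908, and the 48 genes had 11 higher and 2 lower. Of the 13385 genes whose mean lay above the olfactory receptor edge, 6.98% were higher and 6.06% were lower. The edge was set on the mean of all 4 arrays, which a gene such as Itgb6 passed through the shPW1 arrays alone. No share of the set above it is therefore given beside these percentages. Counts of the set with that filter stand among the processing alternatives below, under the same limit. The median log2 fold change of the 48 genes was 0.00, against -0.01 for all genes, and their median absolute log2 fold change was 0.18, against 0.12. The integrin subunits had a median of -0.05 and the adhesion proteins one of 0.16. With array medians subtracted these were 0.01 and 0.22, so the sign of the integrin median depends on the scaling.

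**Figure D1:**
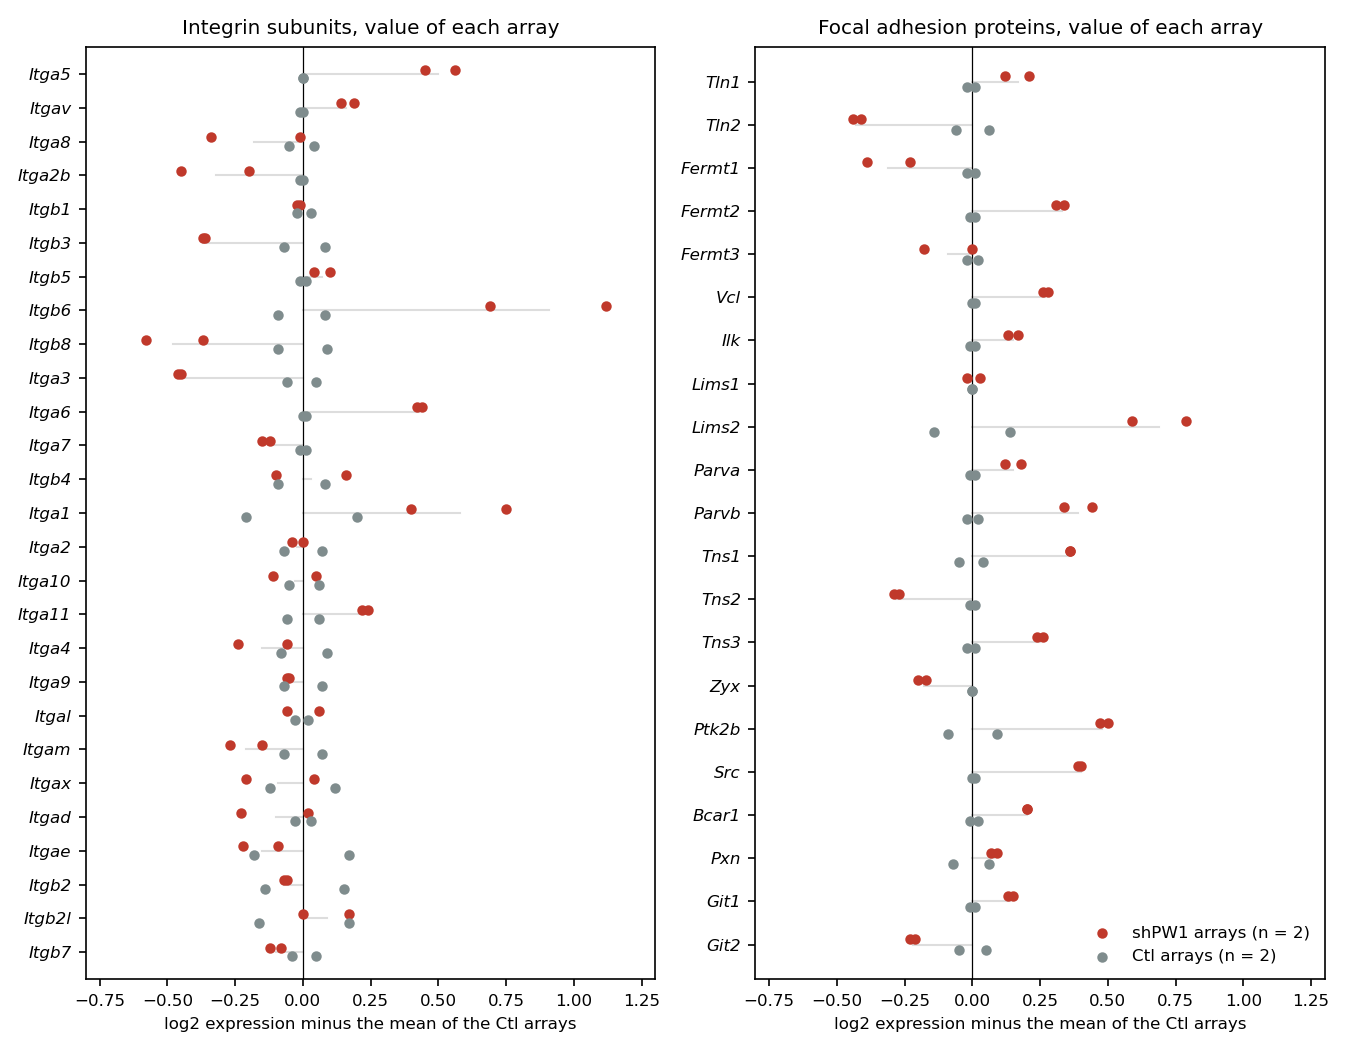
Log2 expression of each array minus the mean of the Ctl arrays (horizontal axis) for 27 integrin subunits (left) and 21 focal adhesion proteins (right), grouped by role. Red points are the 2 shPW1 arrays, grey points the 2 Ctl arrays, and the pale line runs from 0 to the shPW1 mean, which lies at 0.50 for Itga5 and -0.45 for Itga3. The Ctl values of Itgb6 lay below the edge of dim values, so the length of its line has no exact meaning as a fold.

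Both shPW1 arrays lay above both Ctl arrays for 21 of the 48 genes and below them for 12, while the groups overlapped for 15. Over all genes these shares were 27.0% above and 28.5% below. The split differed by kind of protein in these values. The groups overlapped for 13 of 27 integrins but for 2 of 21 adhesion proteins, of which 14 lay above and 5 below. The difference between these kinds was not tested, and 9 of the 10 genes below the olfactory receptor edge were integrins.

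The fibronectin and RGD receptors, named for the short peptide they recognise in their ligands, included 2 of the 3 integrins that rose. Itga5, the alpha subunit of the classical fibronectin receptor, had log2 expression of 10.47 and 10.36 in the shPW1 arrays and 9.91 and 9.91 in the Ctl arrays. Both shPW1 arrays were higher than either Ctl array. The log2 fold change was 0.50 ± 0.07 (SE, adjusted p = 0.0236, limma), a 1.42-fold rise. Its only partner, the common beta subunit Itgb1, which pairs with many alpha subunits, had values of 11.48 and 11.47 in shPW1 and 11.52 and 11.47 in Ctl. These overlapped, and the log2 fold change of -0.02 had a 95% interval from -0.17 to 0.13, so a change as large as that of Itga5 lies outside it. Fn1, which encodes fibronectin itself and was named after its value was seen, differed by -0.05 on the log2 scale (95% interval from -0.20 to 0.10).

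Itgb6, a beta subunit known from epithelia that activates latent TGF-beta with alpha-v, had log2 expression of 5.44 and 5.87 in the shPW1 arrays and 4.83 and 4.66 in the Ctl arrays. The Ctl values lay below the olfactory receptor edge and the shPW1 values above it. At the shPW1 mean the rise is thus at least 1.63-fold against that edge (means of 5.66 in shPW1 and 4.75 in Ctl). This bound makes no allowance for the spread of the shPW1 arrays. The fitted log2 fold change was 0.91 ± 0.16 (SE, adjusted p = 0.0401, limma), and its 95% interval ran from 0.49 to 1.33. It lay at 0.69 without shPW1 replicate 2 and at 1.13 without shPW1 replicate 1. Of 8 epithelial markers, 0 were higher by limma and 1 was lower, with 2 at an unadjusted p under 0.05, beside 5534 of all 19938 genes. The lower one was Krt14, a basal keratin, with values of 7.05 and 7.08 in shPW1 and 8.11 and 7.96 in Ctl. The others, none of them called, are named as exceptions to the rule for named genes, to give the whole list. Epcam, Cdh1, Esrp1 and Krt5 lay below the edge. The keratins Krt8 and Krt18 and the claudin Cldn4 lay above it, with log2 fold changes of 0.17, -0.05 and -0.27. The summed log2 level of the 8 markers was 42.5 to 42.6 in shPW1 and 43.7 to 44.2 in Ctl, and their part in the rise of Itgb6 was not tested.

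Itgav, the alpha-v subunit shared by the vitronectin and TGF-beta receptors, had values of 10.16 and 10.21 in shPW1 and 10.01 and 10.02 in Ctl. The groups did not overlap, but the log2 fold change of 0.17 did not pass the test (adjusted p = 0.15 from limma). Its other beta partners went different ways. Itgb3, the beta-3 subunit, had 9.03 and 9.02 in shPW1 against 9.32 and 9.47 in Ctl, a log2 fold change of -0.37 that stayed just outside the threshold (adjusted p = 0.0534 from limma). Itgb8, which also activates latent TGF-beta, had 5.29 and 5.50 in shPW1 against 5.96 and 5.78 in Ctl (log2 fold change -0.48, adjusted p = 0.0639 from limma). Both shPW1 arrays were below both Ctl arrays for Itgb3 and Itgb8. Itgb5, the beta-5 subunit, differed by 0.07 on the log2 scale, with a 95% interval from -0.08 to 0.22. Itga2b, the platelet fibrinogen receptor subunit, had -0.32 (adjusted p = 0.128 from limma), and Itga8, below the edge, had -0.18. Of 3 measured platelet markers, 2 had an unadjusted p under 0.05 in limma, beside 5534 of all 19938 genes. The chemokine Ppbp alone passed the test and was higher by 0.94 on the log2 scale. Gp9 differed by -0.34, with both shPW1 arrays below both Ctl arrays, and Pf4, below the edge, by 0.03. Gp9 and Pf4 were not called and are named as exceptions, to give the whole list. Of 8 endothelial markers 0 passed the test in limma (0 at an unadjusted p under 0.05). The calls of Itgb3 and Itgb8 depend on which probe sets enter the adjustment. With probe sets in the olfactory receptor range left out, the adjusted p from limma was 0.0198 for Itgb3 and 0.0271 for Itgb8. Neither gene was called with array medians subtracted or with all rows tested, where Itgb3 had an adjusted p of 0.0677 and 0.144 from limma.

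Laminin receptors changed in opposite directions. Itga6, which pairs with beta-1 or beta-4, had values of 9.50 and 9.48 in shPW1 and 9.07 and 9.06 in Ctl, a log2 fold change of 0.43 ± 0.06 (SE, adjusted p = 0.0236, limma). Itga3, the alpha-3 subunit, had 8.56 and 8.55 in shPW1 and 9.06 and 8.95 in Ctl, a log2 fold change of -0.45 ± 0.07 (SE, adjusted p = 0.0282, limma). For neither gene did the groups overlap, and replicate arrays lay much closer to each other than the groups did. Itga7, the alpha-7 subunit that anchors muscle fibres to laminin, had 8.85 and 8.82 in shPW1 against 8.98 and 8.96 in Ctl. Its log2 fold change of -0.13 did not pass the test (95% interval from -0.28 to 0.02). Itgb4, the hemidesmosome subunit that pairs with alpha-6, overlapped between groups, with a 95% interval of its log2 fold change from -0.27 to 0.34.

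None of the 4 collagen receptor subunits passed limma's adjusted threshold, with 2 at an unadjusted p under 0.05, beside 5534 of all 19938 genes. Itga1 had the largest difference of them, with 4.67 and 5.02 in shPW1 and 4.47 and 4.06 in Ctl. Its groups did not overlap, but its mean lay below the olfactory receptor edge, and the 95% interval of its log2 fold change of 0.58 ran from 0.09 to 1.06. Itga11, a receptor subunit of mesenchymal cells, had 5.94 and 5.96 in shPW1 against 5.66 and 5.78 in Ctl (log2 fold change 0.23, adjusted p = 0.116 from limma). Itga2 and Itga10 overlapped between groups, with log2 fold changes of -0.02 and -0.04.

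The integrins of leukocytes and of VCAM-1 binding showed no call in 10 genes, with 0 at an unadjusted p under 0.05 from limma. They were Itga4 and Itga9, whose receptors bind VCAM-1, the beta-2 family (Itgal, Itgam, Itgax, Itgad, Itgb2) and Itgae, Itgb7 and Itgb2l. Log2 fold changes ran from -0.21 for Itgam to 0.08 for Itgb2l, and 6 of the 10 lay below the olfactory receptor edge. Itgb2, the shared beta subunit of the leukocyte receptors, had 4.98 and 4.97 in shPW1 and 4.90 and 5.19 in Ctl. Itga4, a partner of beta-1, had 4.95 and 4.77 in shPW1 and 5.10 and 4.93 in Ctl. The groups overlapped for both. Of 9 measured leukocyte markers, 5 lay below the edge and 0 were called in either direction by limma (1 at an unadjusted p under 0.05), with a summed log2 level of 42.4 to 43.9 in shPW1 and 42.5 to 43.7 in Ctl.

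**Figure D2:**
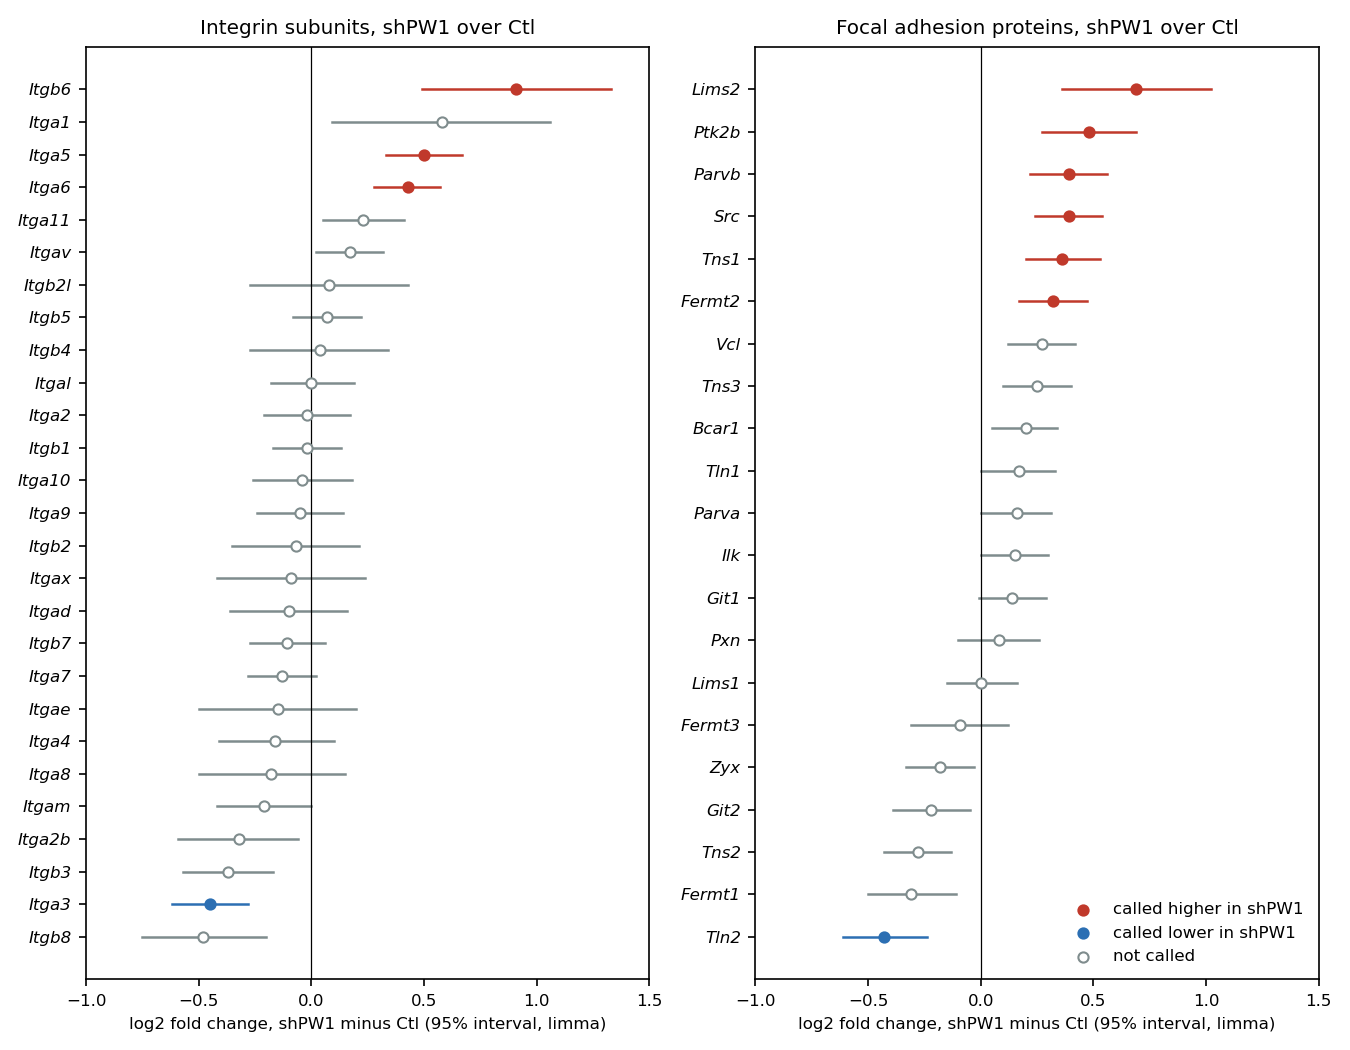
Log2 fold change of shPW1 over Ctl (horizontal axis) for each integrin subunit (left) and focal adhesion protein (right), in order of size, with bars for the 95% interval from limma. Filled red points were called higher, filled blue points called lower and open points not called; the intervals are widest for Itga1 and Itgb6 and narrow around 0 for Itgb1.

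Of the proteins that bind the integrin tail or strengthen its link to actin, the kindlin Fermt2 rose and the talin Tln2 fell. Fermt2, the kindlin of mesenchymal and muscle cells, had log2 expression of 10.34 and 10.37 in shPW1 and 10.02 and 10.04 in Ctl, a log2 fold change of 0.32 ± 0.06 (SE, adjusted p = 0.0391, limma). Tln2, the talin of striated muscle and brain, had 7.58 and 7.55 in shPW1 and 8.05 and 7.93 in Ctl, a log2 fold change of -0.43 ± 0.07 (SE, adjusted p = 0.034, limma). The groups did not overlap for either gene. Tln1, the widely expressed talin, had 10.36 and 10.27 in shPW1 against 10.16 and 10.13 in Ctl. Its log2 fold change of 0.17 did not pass the test (adjusted p = 0.174 from limma, 95% interval from 0.00 to 0.33).

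Vcl, which encodes vinculin, the protein that binds stretched talin and recruits actin, came close to the threshold. Its values were 11.04 and 11.06 in shPW1 and 10.79 and 10.78 in Ctl, with a log2 fold change of 0.27 ± 0.06 (SE, adjusted p = 0.0567, limma). Both shPW1 arrays were higher by far more than replicates differed. With probe sets in the olfactory receptor range left out the adjusted p from limma was 0.0189, and with array medians subtracted it was 0.0381. Vcl was not called with quantile normalization repeated, with all rows tested or with the replicate number as a block. Fermt1, the epithelial kindlin, lay far below the olfactory receptor edge, and Fermt3, the kindlin of blood cells, overlapped between groups at 5.52 and 5.34 in shPW1 and 5.54 and 5.50 in Ctl.

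In the ILK, PINCH and parvin complex, 2 of 5 genes rose and 0 fell by limma, with 3 at an unadjusted p under 0.05. Over all 19938 genes, 4.93% were called higher and 5534 had an unadjusted p under 0.05. Lims2, which encodes PINCH-2, had log2 expression of 6.37 and 6.57 in shPW1 and 5.64 and 5.92 in Ctl, a log2 fold change of 0.69 ± 0.13 (SE, adjusted p = 0.0422, limma). Parvb, which encodes beta-parvin, had 8.40 and 8.30 in shPW1 and 7.98 and 7.94 in Ctl, a log2 fold change of 0.39 ± 0.06 (SE, adjusted p = 0.0348, limma). The groups did not overlap for either. Their close relatives moved less. Lims1, which encodes PINCH-1, overlapped at 9.96 and 9.91 in shPW1 and 9.93 and 9.93 in Ctl, with a 95% interval of its log2 fold change from -0.15 to 0.16. Parva, which encodes alpha-parvin, differed by 0.16 (adjusted p = 0.18 from limma). Ilk, the shared partner of all 4, had 11.04 and 11.08 in shPW1 against 10.92 and 10.90 in Ctl, and its log2 fold change of 0.15 did not pass the test (adjusted p = 0.184 from limma). The differences between relatives were not tested.

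The tensins, which link integrin tails to actin and carry phosphotyrosine-binding domains, did not move together. Tns1 had log2 expression of 10.38 and 10.38 in shPW1 and 10.06 and 9.97 in Ctl on its brightest probe set, a log2 fold change of 0.36 ± 0.06 (SE, adjusted p = 0.038, limma). Tns3 had 8.76 and 8.74 in shPW1 against 8.51 and 8.48 in Ctl (log2 fold change 0.25, adjusted p = 0.0662 from limma). Tns2 lay on the other side, with 8.27 and 8.29 in shPW1 and 8.55 and 8.57 in Ctl (log2 fold change -0.28, adjusted p = 0.0527 from limma). In all 3 tensins the groups did not overlap. Zyx, which encodes zyxin, a sensor of tension at adhesions and stress fibres, had 10.55 and 10.52 in shPW1 against 10.72 and 10.72 in Ctl, and its log2 fold change of -0.18 did not pass the test (adjusted p = 0.126 from limma).

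Tns1 was measured by 6 probe sets, and 5 of them had both shPW1 arrays above both Ctl arrays. Of these, 3 were called higher, with log2 fold changes of 0.36, 0.36 and 0.31, and the others had 0.31 (adjusted p = 0.0577 from limma) and 0.23. The remaining probe set had 8.59 and 7.79 in shPW1, farther apart than any other pair of replicates of this gene, against 8.17 and 8.27 in Ctl. With the mean of all 6 probe sets the log2 fold change of Tns1 was 0.26 and did not pass the test (adjusted p = 0.105 from limma), and on the dimmest it was 0.23 (adjusted p = 0.167 from limma).

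**Figure D3:**
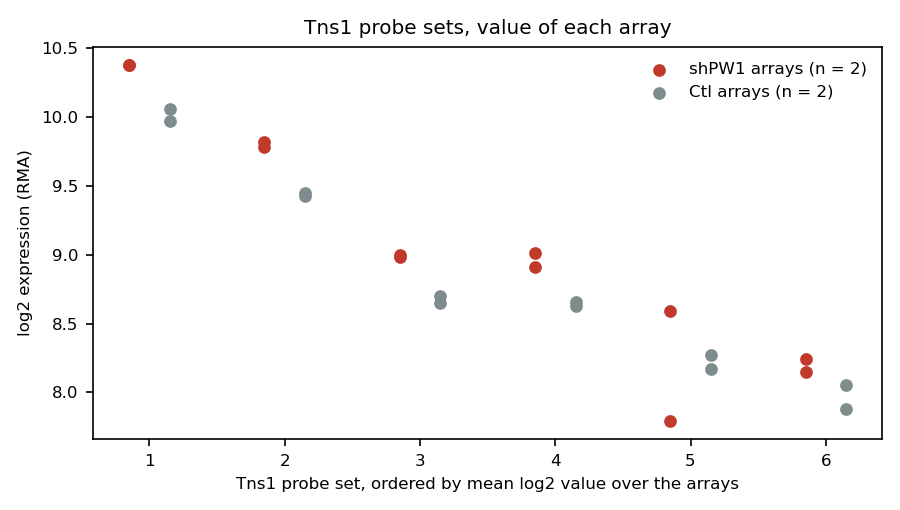
Log2 expression (vertical axis) of the 6 Tns1 probe sets, ordered by their mean over the arrays (horizontal axis). Red points are the 2 shPW1 arrays and grey points the 2 Ctl arrays; the shPW1 points lie above the Ctl points in 5 probe sets and straddle them in the fifth.

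Of the signalling kinases and scaffolds, both measured kinases rose. Src, the kinase that phosphorylates paxillin and p130Cas, had log2 expression of 8.31 and 8.30 in shPW1 and 7.92 and 7.91 in Ctl, a log2 fold change of 0.39 ± 0.06 (SE, adjusted p = 0.0275, limma). Ptk2b, which encodes Pyk2, the calcium-responsive relative of focal adhesion kinase, had 7.26 and 7.29 in shPW1 and 6.88 and 6.70 in Ctl, a log2 fold change of 0.48 ± 0.08 (SE, adjusted p = 0.0362, limma). The groups did not overlap for either gene. The scaffolds did not pass the test. Bcar1, which encodes p130Cas, had 8.48 and 8.48 in shPW1 against 8.30 and 8.27 in Ctl (log2 fold change 0.20, adjusted p = 0.111 from limma). Pxn, which encodes paxillin, had 8.41 and 8.43 in shPW1 against 8.40 and 8.27 in Ctl, with a 95% interval of its log2 fold change from -0.10 to 0.26. The Arf GTPase-activating proteins Git1 and Git2, which bind paxillin, had log2 fold changes of 0.14 and -0.22 (adjusted p = 0.203 and 0.117 from limma).

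With any 1 of the 4 arrays left out, 1 residual degree of freedom remained and limma called 0 of all probe sets, so the loss of all 11 calls there is not particular to these genes. Their values moved little. Src lay between 0.38 and 0.40 over these fits, Itga6 between 0.42 and 0.44 and Fermt2 between 0.31 and 0.34, and in the 9 calls other than Itgb6 and Lims2 no log2 fold change shifted by more than 0.09. Lims2 ranged from 0.55 to 0.83. With all 35556 rows of the table tested, 0 of the 48 genes passed, where 26 had an unadjusted p under 0.05 in limma's fit of the 21789 named probe sets. With the replicate number as a block, 1 gene of this set, Lims2, passed.

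The genes around this core were counted in lists of known adhesion components. Of 32 measured actin linkers and adaptors of adhesions, 5 were higher and 2 were lower (15.6% and 6.25%), with a median log2 fold change of 0.01. Over all 19938 genes, 4.93% were higher and 4.35% were lower. An unadjusted p under 0.05 in limma was found in 19 of the 32. The actin-bundling sarcomere and stress fibre protein nexilin (Nexn) had values of 9.52 and 9.60 in shPW1 and 8.98 and 8.88 in Ctl, the actin polymerisation factor Enah had 8.37 and 8.37 against 7.83 and 7.90, and the zyxin relative Lpp had 10.12 and 10.10 against 9.66 and 9.56. Their log2 fold changes were 0.63, 0.51 and 0.50. Actn3, the alpha-actinin of fast muscle fibres, fell by 0.58 on the log2 scale (adjusted p = 0.0147 from limma). Of 36 signalling proteins and exchange factors, 4 were higher and 0 were lower by limma (11.1% and 0.0%). An unadjusted p under 0.05 was found in 12 of the 36, beside 5534 of all 19938 genes. The called genes were the adaptor Crkl (log2 fold change 0.47), the kinase Pak2 (0.47), the small GTPase Rap1b, which promotes integrin activation (0.36), and the Src family kinase Fyn (0.31).

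The membrane proteins that associate with integrins and the ligands of integrins moved in both directions. Of 18 measured membrane proteins, 2 were higher and 3 were lower (11.1% and 16.7%), beside 4.93% and 4.35% of all 19938 genes. An unadjusted p under 0.05 in limma was found in 10 of the 18, beside 5534 of all 19938 genes. Plaur, the urokinase receptor, which binds integrins at the cell surface, had log2 expression of 10.09 and 10.05 in shPW1 and 9.09 and 9.01 in Ctl, a log2 fold change of 1.02 ± 0.06 (SE, adjusted p = 0.00647, limma). The tetraspanin Cd9, which organises integrins in the membrane, had 9.99 and 10.04 in shPW1 against 10.96 and 10.92 in Ctl, a log2 fold change of -0.92 ± 0.06 (SE, adjusted p = 0.00691, limma). The proteoglycan Cspg4, which also stands among the pericyte markers, and the tetraspanin Cd82 fell by 0.66 and 0.54 on the log2 scale.

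Of 50 measured ligands, 7 were higher and 10 were lower (14.0% and 20.0%), with a median log2 fold change of -0.06. These shares stand beside 4.93% and 4.35% of all 19938 genes. An unadjusted p under 0.05 in limma was found in 26 of the 50, beside 5534 of all 19938 genes. The furthest falls were those of Tgfbi, a matrix protein bound by several integrins (log2 fold change -0.95), Jam2, a junctional ligand of alpha-4 beta-1 (-0.85), and the collagen VI chains Col6a1 (-0.85) and Col6a2 (-0.80). The 7 ligands that rose were Tgm2 (log2 fold change 0.65), tenascin-C (Tnc, 0.61), Vcam1 (0.44), Ccn2 (0.38) and basement membrane chains. Those chains were Col4a1 (0.46), Col4a2 (0.38) and Lamb1 (0.39). All 7 and the laminin chains that follow were named after their values were seen. The laminin chain Lama5 was called lower (log2 fold change -0.57, adjusted p = 0.0192 from limma). Without a call, both shPW1 arrays lay below both Ctl arrays for Lama2 (-0.44), Lamb3 (-0.43) and Lama3 (-0.15), and above them for Lama4 (0.16) and Lamc1 (0.10). Lama3 and Lama4 lay below the olfactory receptor edge. The groups overlapped for Lama1 (-0.11). Tgfb1, whose latent form is the ligand of the receptors with beta-6 and beta-8, was lower, at 9.18 and 9.08 in shPW1 against 9.51 and 9.53 in Ctl (log2 fold change -0.39, adjusted p = 0.0348 from limma), and was also named after its value was seen.

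**Figure D4:**
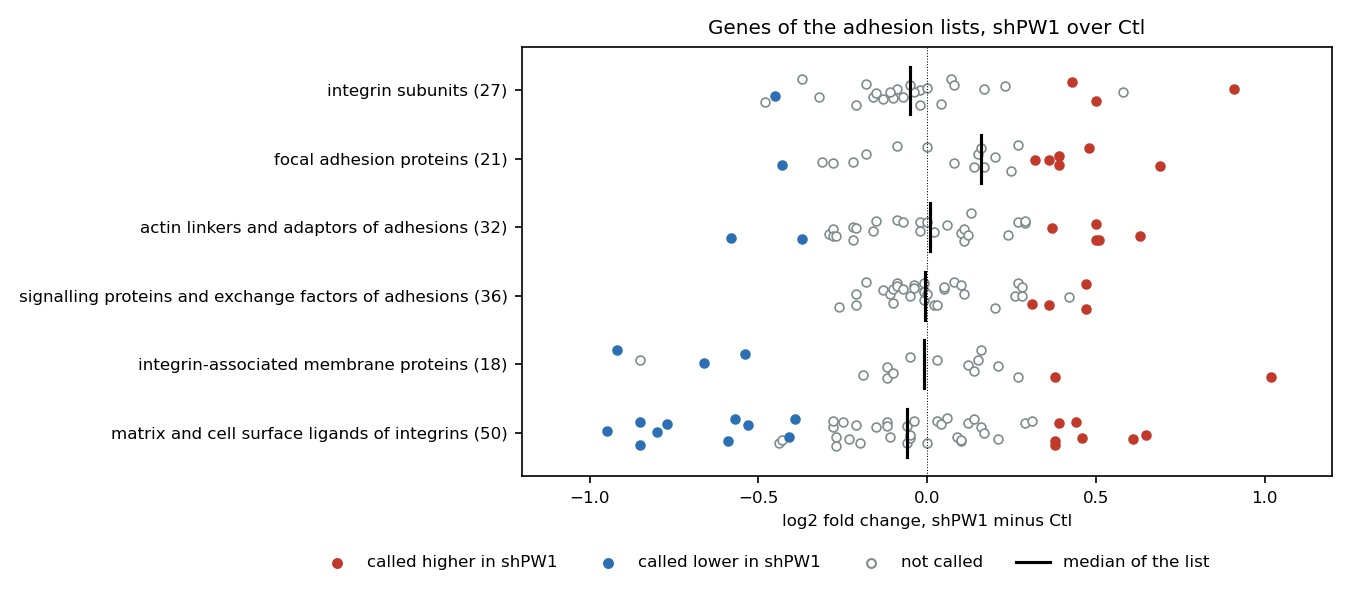
Log2 fold change of shPW1 over Ctl (horizontal axis) for each measured gene of the integrin, focal adhesion and 4 surrounding lists (rows, number of genes in brackets). Filled red points were called higher, filled blue points called lower, open points not called, and black bars are list medians, which lie at -0.05 for integrin subunits (0.01 with array medians subtracted) and 0.16 for focal adhesion proteins.

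The start-site regions of the genes were read from RefSeq (GRCm38.p6), as windows of 250 bases before to 50 after each annotated start. A window was at hand for 35 of the 48 genes, with 43 windows in all, and 7 of these genes were among the called genes. Both strands were searched for 5 motifs: the published consensus of PW1, the CArG box, which binds serum response factor, the Sp1 GC box (GGGCGG), the TEAD motif (GGAATG) and the AP-1 motif (TGANTCA). The PW1 consensus was in 1 of 43 windows, that of Itgb2l, beside 0.484% of all 32851 windows, and in none of the 7 called genes with a window. CArG boxes were in 3 of 43 windows (Itgb6, Fermt2 and Vcl), beside 1.63% of all windows. GC boxes were in 25 of 43 windows (58.1%), beside 35.7% of all. Counted by gene, they were in 21 of 35, beside 38.2% of all genes with a window. TEAD motifs were in 3 and AP-1 motifs in 4 of 43 windows, beside 14.7% and 7.81% of all. None of the 80 matches overlapped a match of another motif. Windows of the same gene overlap for Git1 and Git2, so some of their GC boxes are counted again among the 80. A match is a description of the letters and not a site of binding.

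The stretches shown are 60 bases each, all before the annotated start, with the motif in capitals as it reads on the strand of the gene. They are shown because Itga5 and Itga3 moved in opposite directions yet both hold a GC box, because Itgb6, Fermt2 and Vcl hold the CArG boxes of the set, and because Itgb2l holds its only PW1 consensus.
Itga5 (chr15:103366792-103366851, minus strand, GC box): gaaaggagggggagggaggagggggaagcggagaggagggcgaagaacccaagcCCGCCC
Itga3 (chr11:95076718-95076777, minus strand, GC box): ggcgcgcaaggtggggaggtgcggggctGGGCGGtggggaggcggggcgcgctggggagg
Itgb6 (chr2:60673710-60673769, minus strand, CArG box): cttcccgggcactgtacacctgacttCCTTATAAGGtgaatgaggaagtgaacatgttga
Fermt2 (chr14:45530236-45530295, minus strand, CArG box): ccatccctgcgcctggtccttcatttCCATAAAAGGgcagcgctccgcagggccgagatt
Vcl (chr14:20929148-20929207, plus strand, CArG box): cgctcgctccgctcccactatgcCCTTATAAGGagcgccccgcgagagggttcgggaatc
Itgb2l (chr16:96443652-96443711, minus strand, PW1 consensus): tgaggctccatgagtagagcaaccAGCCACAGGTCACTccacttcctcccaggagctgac
The log2 values of Itgb2l, beside its motif, were 5.54 and 5.37 in shPW1 and 5.21 and 5.54 in Ctl. The groups overlapped, and the 95% interval of its log2 fold change ran from -0.27 to 0.43. Itgb6 has a second annotated start, whose window held no CArG box.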

How the data were processed

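Expression was measured in 2 shPW1 and 2 Ctl RNA extractions of AdmMABs. The deposited values were log2 expression per probe set, which the authors had obtained by RMA; the submitters' processing notes name Partek 6.4 for this step. Background correction and summarization were not repeated. Genes were named through the array's annotation. Of 35556 rows, 21789 had exactly 1 gene symbol and were tested, 1621 had several symbols and 12146 had none. The genes of 21698 of these probe sets matched a RefSeq gene table, through which old symbols were updated.

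The fit of shPW1 against Ctl used limma 3.58.1 (lmFit, eBayes; R 4.3.3), with 2 residual and 2.72 prior degrees of freedom and two-sided p-values. Benjamini-Hochberg adjustment ran over all 21789 probe sets, with calls at an adjusted p under 0.05. Intervals are 95% intervals of that fit. The number of arrays limits the precision. The fit was run on values simulated from its own variance model, a check of the code and not of the calls. Members and lists were chosen with earlier results of these data known. All members could be named. Of each other list, up to 4 called genes with the largest absolute change were named, with exceptions marked in the text. The alternatives tried were array medians subtracted, quantile normalization repeated, 2 filters on dim probe sets, testing of every row, the methods' analysis of variance, a prior both trended and robust, the replicate number as a block, another probe set of a gene, and leaving out each array in turn.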

Additional observations from a re-analysis of the deposited data

How the results depend on the processing

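The direction of all 11 calls was kept under every alternative that could be fitted, but only a rescaling or another probe set could have changed it. The filters, the testing of all rows, the analysis of variance, the prior and the block leave a fold change as it is. Leaving out an array cannot reverse it where the groups do not overlap, as for all 11 calls. Itgb6 could not be fitted with probe sets under the table's median (log2 5.44) left out. The number of genes of this set called higher was 9 and called lower was 2. Higher calls numbered 8 to 11 and lower calls 2 to 3 with a second quantile normalization, array medians subtracted or another probe set of Tns1 and Itgad. With probe sets under the median left out, 13 were higher and 8 lower, and with those in the olfactory receptor range left out, 12 were higher and 5 lower. The olfactory receptor filter used the mean of all 4 arrays. Itgb6, one of the 12, passed it through its shPW1 arrays alone, so this count is no check of its call. A trended robust prior gave 17 higher and 7 lower. The methods' analysis of variance (unadjusted p under 0.05 and a fold change over 1.2) gave 8 higher and 4 lower, without Itgb6 and Lims2, and after Benjamini-Hochberg adjustment 0 higher and 0 lower. With all rows tested there were 0 higher and 0 lower. With each array left out in turn, the counts of the set lay between 0 and 0 in both directions, as did those of all probe sets, with 1 residual degree of freedom, so these counts say nothing of single genes. The lone array of a group is then assumed to vary like the other group.

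Over all probe sets, 1075 were higher and 908 lower. Probe sets under the median left out gave 2240 and 1784, those in the olfactory receptor range left out 1943 and 1650, the trended robust prior 2735 and 1978, and all rows 36 and 50. Array medians subtracted gave 1637 higher beside 698 lower, a shift of 0.06 in the median log2 fold change. The analysis of variance after adjustment gave 1 and 1. The cause of these differences was not tested.

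With the replicate block, 1 gene of the set was higher and 0 were lower, and over all probe sets 256 were higher and 258 lower. Deviations of same-numbered arrays correlated at -0.105 over probe sets. With 1 replicate difference per group, this cannot settle whether same-numbered extractions were handled together. With the numbers crossed, a pairing chosen after seeing the data, 0 genes of the set were called in either direction, and 213 probe sets were higher and 224 lower.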
